A study of Bos taurus with 252 samples.

Results

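The 10 genes studied here belong to the heat shock protein and chaperone system and were followed in the blood of beef steers. Their rows were taken by name from a count table of 33282 genes, 19056 of which were tested, and all 10 of the 10 genes passed that filter. The 6 cytosolic members were HSPA1A, HSPH1, HSPA8, HSP90AA1, HSP90AB1 and DNAJB1. The 2 mitochondrial members were HSPD1 and HSPE1, the member of the endoplasmic reticulum (ER) was HSPA5, and HSF1 was the regulator. Stranded mRNA libraries were made from whole blood, kept in RNA-preserving PAXgene tubes, of 42 crossbred steers on day 0 and again 3, 7, 14, 21 and 56 days later. The steers formed 7 groups of 6. A single group received no antimicrobial (negative control, NC). The others received a single label dose of enrofloxacin (ENRO), tulathromycin (TULA), tildipirosin (TILD), ceftiofur (CEFT), florfenicol (FLOR) or oxytetracycline (OXYT). Blood on day 0 was drawn before administration, so the groups had then had the same handling. All cattle, NC included, had been given tildipirosin, a growth implant, antiparasitics and vaccines at an earlier site, and their age was not given in the sources used here. Each treatment was housed in its own pen, so pen and treatment cannot be told apart.

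Molecular chaperones bind unfolded or partly folded proteins and help them reach or regain their native shape. When proteins unfold, as in heat, fever or oxidative stress, the transcription factor HSF1 is released from inhibitory binding by chaperones and switches on the genes for inducible heat shock proteins. HSP70 proteins work in cycles of ATP hydrolysis that J-domain proteins start and nucleotide exchange factors end, and HSP90 acts later on kinases and steroid receptors. Mitochondria and the ER hold chaperones of their own, and those of the ER answer to a separate pathway, the unfolded protein response. In leukocytes, inducible members respond to heat and to activation of the cells.

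Levels are given as counts per 1000000 counts of the library (CPM), scaled by the trimmed mean of M values (TMM), and differences as log2 fold changes ± SE with a false discovery rate (FDR) over all 19056 genes. Library totals ranged from 26073640 to 74110289 counts with a median of 43608836, and the lowest count of a member in a library was 363 (HSPA1A), so sampling error was small beside the spread between steers. Hemoglobin genes took from 0.00405% to 25.5% of a library. NC and ENRO were sequenced on lane 1, TULA on lane 2, CEFT and OXYT on lane 3, FLOR on lanes 1 and 2 and TILD on lanes 2 and 3. After day 0 the groups passed the chute in the order NC, ENRO, FLOR, TULA, TILD, CEFT and OXYT, so order and treatment cannot be told apart. ENRO shared its lane with NC, and FLOR did in part. TULA, TILD, CEFT and OXYT were on other lanes than NC, so against NC lane and treatment are separated only through the groups that were split over lanes. The defining markers of T cells, B cells, neutrophils, monocytes, platelets and erythroid cells were present in blood, while GNLY, CSF3R, FCGR3B, CLC and GP1BB had no row. HSPA1A has a near-identical neighbouring copy, HSPA1B, which had no row of its own. HSPA1A may therefore hold reads of both genes and is uncertain as a single gene.

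A few libraries stood apart in these genes. Steer Enro10 on day 0 had the highest CPM of 42 steers in 7 of the 10 members, against 5.91% of all genes, and results that rest on this steer are given with and without it. HSPA1A fell under 25 CPM in 16 libraries.

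HSPA8, the constitutive cytosolic HSP70, had a median of 1060 CPM on day 0, with a range from 404 to 2772 CPM over 42 steers. HSP90AB1 and HSP90AA1, the constitutive and the inducible HSP90, had medians of 649 CPM (range 431 to 1149) and 614 CPM (range 414 to 1004). HSPA5, also known as BiP, had a median of 227 CPM (range 155 to 389). These medians describe each gene on its own, since CPM is not scaled to transcript length and gives no order between genes. The inducible HSP70 gene HSPA1A had a median of 89.7 CPM on day 0 and ranged from 15.1 to 334 CPM, a 22.2-fold range, beside 6.86-fold for HSPA8, the next widest. HSPD1 (HSP60) had a median of 92.0 CPM (range 73.3 to 141) and its co-chaperonin HSPE1 (HSP10) one of 49.1 CPM (range 35.3 to 81.1). DNAJB1, the J-domain partner of inducible HSP70, had a median of 63.3 CPM, HSF1 one of 58.7 CPM and HSPH1 (HSP110), a nucleotide exchange factor of HSP70, one of 39.01 CPM.

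**Figure D1:**
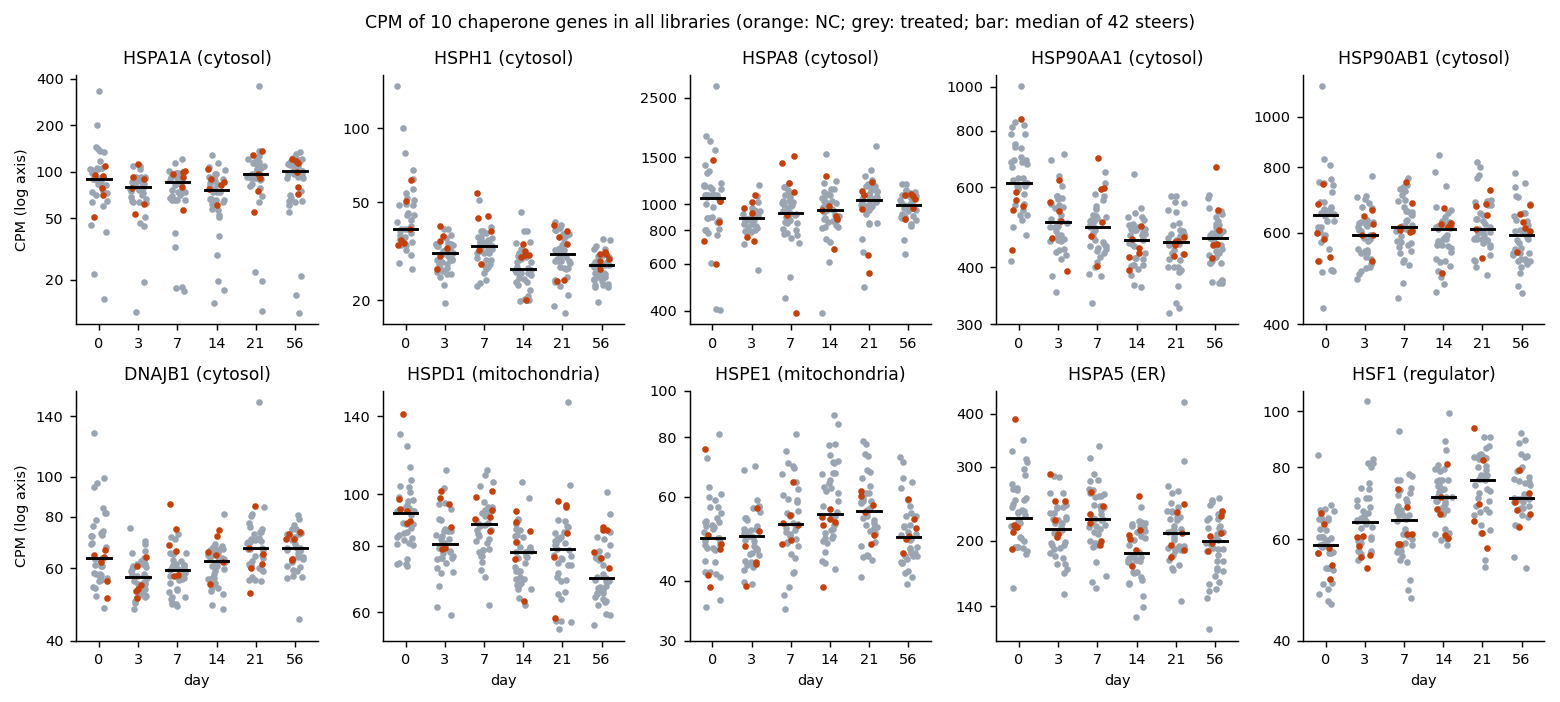
CPM on a log axis of each of the 10 genes in the 6 libraries of 42 steers by day (the 6 days are evenly spaced, not to scale); orange points are NC steers, grey points treated steers and black bars medians of 42 steers. HSPH1 and HSP90AA1 sit lower on every day after day 0, HSF1 sits higher, and HSPA1A has a tail of 16 low libraries.

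The first question was how the members moved over the 56 days in all cattle. Against day 0, with steer as a block and the 7 groups weighted equally, 8 of the 10 members were lower and 1 was higher on day 3 (edgeR quasi-likelihood test, FDR 0.05), while 42.1% of all genes were called, 20.2% lower and 22% higher. Day 7 had 4 members lower and 1 higher, against 46.8% of genes called, 21.3% lower and 25.5% higher. Day 14 had 7 lower and 2 higher (65% of genes, 31.2% lower and 33.8% higher). Day 21 had 4 lower and 2 higher (66.4% of genes, 32.8% lower and 33.6% higher), and day 56 had 5 lower and 1 higher (65.4% of genes, 31.9% lower and 33.5% higher). From day 14 on most genes of blood were called as well, and the members' share of calls was near that background on days 7, 21 and 56. The 35 calls of members split into 28 lower and 7 higher, whereas slightly more genes were called higher than lower over all genes tested. The members' median log2 fold change was -0.19 on day 3 and -0.19 on day 14, beside 0.02 for all genes on both days. Those were the days with the most calls of members, and the medians of days 7, 21 and 56 are not given here. On day 21 HSPA1A, HSPA8, HSP90AB1 and DNAJB1 gave 0.04, -0.04, -0.04 and 0.03 and were not called. An F test over the 5 days together called all 10 members, and 80.4% of all genes.

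Cell markers moved over the same days. On day 14 against day 0, neutrophil markers were lower in 5 of 8 and higher in none, and monocyte markers were lower in 7 of 8. T cell markers were higher in 8 of 10 and lower in 1, B cell markers higher in 5 of 8 and lower in 1, and all 11 erythroid markers tested were higher. Of 7 NK and cytotoxic markers 2 were higher and 4 lower. Of 7 eosinophil and basophil markers 5 were higher and 1 lower. Platelet markers were higher in 1 of 7 and lower in none. Of the 12 immediate early genes, which are no cell type, 1 was higher and 7 were lower. The summed level of the 8 neutrophil markers went from 1748 to 5679 CPM over 42 steers on day 0 and from 1417 to 4477 CPM on day 14. In whole blood, fewer cells of a type and less RNA per cell cannot be told apart, and the part of the cell mix in the changes below was not tested.

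HSPH1 fell the most of the 10 members. Its CPM on day 0 had a median of 39.01 and a range from 26.8 to 149. The medians of the 5 later days were 30.99 (range 19.5 to 40.2), 33.2 (22.8 to 54.6), 26.8 (19.8 to 45.6), 30.9 (17.7 to 41.5) and 27.7 (19.6 to 35.3) CPM. The days overlapped between steers, but within steers the fall was close to general. HSPH1 was lower than on day 0 in 39, 35, 39, 35 and 40 of 42 steers on the 5 later days. The log2 fold change was -0.56 ± 0.055 on day 3 (FDR 6.2e-17), -0.72 ± 0.055 on day 14 (FDR 1.1e-26) and -0.72 ± 0.055 on day 56 (FDR 2.2e-26). The mean change was negative in 7 of 7 groups on each of the 5 days, and on day 14 it was -0.58, -0.83 and -0.64 within lanes 1, 2 and 3. Between days 7 and 14 HSPH1 fell by 0.28 on the log2 scale (FDR 3.4e-06), and between days 14 and 21 it rose by 0.16 (FDR 0.032).

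HSPA8 and HSPA1A moved less and not lastingly. HSPA8 was lower on day 3 (log2 fold change -0.23 ± 0.067, FDR 0.0027) and on day 7 (-0.16, FDR 0.042). Its later values of -0.14, -0.04 and -0.07 did not pass the test. The call of day 7 was lost without steer Enro10 (-0.11, FDR 0.15). HSPA1A was lower on day 3 (-0.28 ± 0.121, FDR 0.049) and day 14 (-0.35, FDR 0.0071), and rose by 0.40 between days 14 and 21 (FDR 0.014). Without steer Enro10 the value of day 3 was -0.24 (FDR 0.098) and no longer passed. HSPA1A was higher on day 21 than on day 14 in 36 of 42 steers, and the mean change was positive in 7 of 7 groups. NC (0.17) and ENRO (0.07), both on lane 1, were among them. The mean change differed between lanes, at -0.01 on lane 1, 0.83 on lane 2 and 0.40 on lane 3. Steer Tild2, on lane 2, had the largest change (4.39). HSPA1A was lower than on day 0 in 30 of 42 steers on day 14 and higher in 26 of 42 on day 21.

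The HSP90 paralogs behaved unequally. HSP90AA1, which heat and other stress induce, had a median of 614 CPM on day 0, and of 503 (range 353 to 710), 460 (361 to 641) and 465 (369 to 665) CPM on days 3, 14 and 56. It was lower than on day 0 in 42 of 42 steers on day 14, with a log2 fold change of -0.47 ± 0.033 (FDR 2.2e-29), and the value lay between -0.32 and -0.49 over the 5 days. HSP90AB1, the paralog that most cells express steadily, had a median of 610 CPM (range 461 to 844) on day 14 and fell by 0.11 on the log2 scale on days 3, 14 and 56 (largest FDR 0.0024). On days 7 and 21 HSP90AB1 gave -0.05 and -0.04 and did not pass.

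The ratio of HSP90AA1 to HSP90AB1 within a library is free of library scaling. Its median was 0.970 on day 0 and 0.732 on day 21. Mean log2 changes of the ratio from day 0 were -0.22, -0.33, -0.37, -0.46 and -0.34 on the 5 later days. The ratio was lower in 35, 39, 41, 41 and 38 of the 42 steers. On day 21 the 7 group means were close together, from -0.48 to -0.42, with NC at -0.44, and all 6 NC steers were lower. Lanes 1, 2 and 3 gave -0.42, -0.48 and -0.46 on that day.

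DNAJB1 had a median of 63.3 CPM on day 0 (range 48.1 to 127). On the 5 later days its medians were 57.03 (47.7 to 74.8), 59.2 (48.4 to 85.6), 62.3 (47.8 to 81.1), 67.02 (52.1 to 152) and 67.2 (45.2 to 80.7) CPM. It was lower on days 3, 7 and 14, with log2 fold changes of -0.22, -0.17 and -0.12 ± 0.039 (largest FDR 0.0038), and gave 0.03 and 0.00 on days 21 and 56, which did not pass. The mean change was negative in 7, 6 and 5 of the 7 groups on days 3, 7 and 14. NC was the exception on day 7 (0.17), and on day 14 NC (0.12) and ENRO (0.02) were. Between days 14 and 21 it rose by 0.15 (FDR 0.0024), although lane 1 alone gave a mean change of -0.02 for that step, against 0.25 and 0.21 on lanes 2 and 3. On lane 1 the mean of this step was slightly negative for both HSPA1A and DNAJB1.

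**Figure D2:**
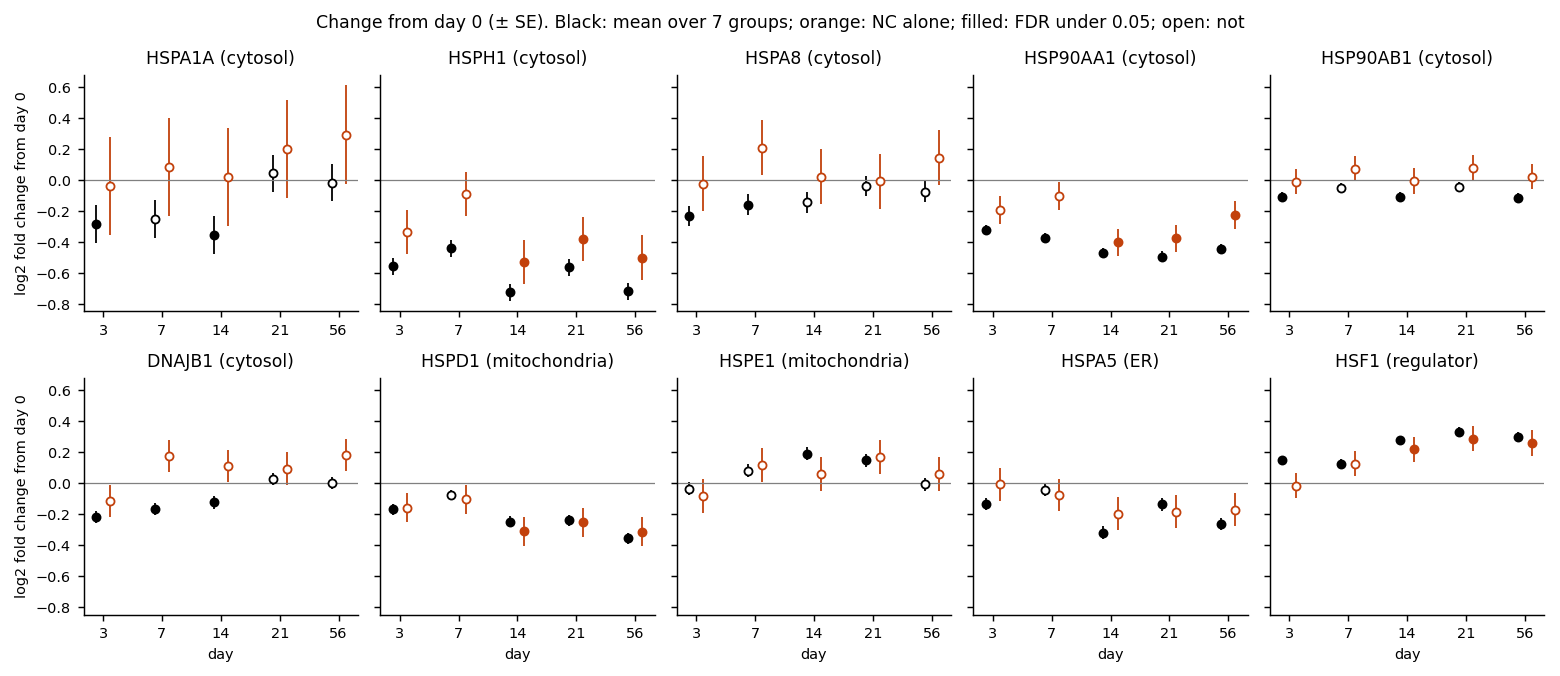
Log2 fold change from day 0 (± SE) of each gene on the 5 later days (evenly spaced, not to scale); black points are the mean over 7 groups of 6 steers, orange points NC alone, and filled points passed an FDR of 0.05. In the mean over groups, HSPH1 and HSP90AA1 fell on all 5 days and HSF1 rose on all 5. HSPD1 and HSPE1 passed in opposite directions on days 14 and 21.

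HSPD1 and HSPE1 form the chaperonin of the mitochondrial matrix, HSPD1 the folding chamber and HSPE1 its lid, and the genes are neighbours in cattle as in other mammals. Both were called, in opposite directions, on days 14 and 21 against day 0 and between days 7 and 14. Between days 14 and 21 neither was called (0.01 for HSPD1 and -0.04 for HSPE1). Both rose between days 3 and 7 (by 0.09 and 0.12) and both fell between days 21 and 56 (-0.12 and -0.15). HSPD1 had medians of 92.0, 80.6, 88.0, 77.8, 78.8 and 69.7 CPM on the 6 days. Its log2 fold change was -0.17 on day 3, -0.25 and -0.24 on days 14 and 21, and -0.36 ± 0.035 on day 56 (FDR 1.7e-18), where it was lower in 38 of 42 steers. Day 7 gave -0.08 (FDR 0.067) and did not pass. HSPE1 had medians of 49.1, 49.5, 52.5, 55.3, 56.0 and 49.4 CPM. It was higher on day 14 (0.19 ± 0.041, FDR 2e-05) and day 21 (0.15, FDR 0.00075) and gave -0.01 on day 56, which did not pass. On day 7 HSPE1 gave 0.08 (FDR 0.098), and without steer Enro10 it gave 0.11 and passed (FDR 0.022). The rise of HSPE1 on day 14 differed between lanes, with a mean change of -0.02 on lane 1 against 0.25 and 0.36 on lanes 2 and 3. Steer Enro10, on lane 1, had the lowest change of the 42 steers (-0.76). The lane 1 mean without that steer is not given here. Over all groups the log2 fold change on day 14 without it was 0.20 (edgeR, FDR 2.9e-06).

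The log2 ratio of HSPD1 to HSPE1 changed from day 0 by means of -0.14, -0.16, -0.44, -0.40 and -0.35 on the 5 later days, and was lower than on day 0 in 34, 29, 39, 40 and 39 of 42 steers. On day 14 the group means ranged widely, from -0.70 in CEFT and -0.68 in TILD through -0.37 in NC to -0.05 in ENRO, in which only 3 of 6 steers were lower. Lane 1 gave -0.19 and lanes 2 and 3 gave -0.57 and -0.56. In NC, all 6 steers had a lower ratio on days 14, 21 and 56.

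**Figure D3:**
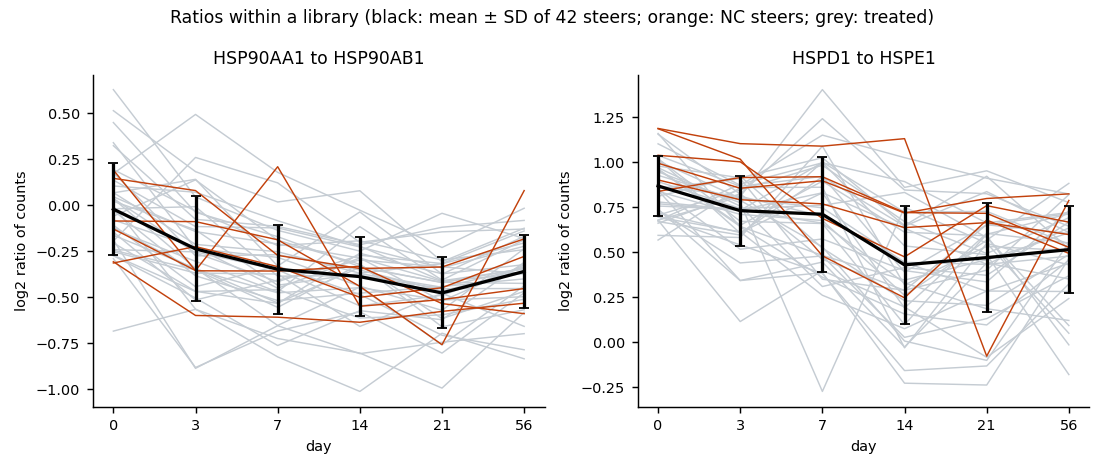
Log2 ratio within a library of HSP90AA1 to HSP90AB1 and of HSPD1 to HSPE1 by day (evenly spaced, not to scale); thin lines are single steers (orange NC, grey treated) and black points mean ± SD of 42 steers. Both ratios were lower than on day 0 in at least 29 of the 42 steers on every later day.

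HSPA5, the HSP70 of the ER and a sensor of its folding load, had a median of 227 CPM on day 0 and later medians of 214 (range 150 to 288), 226 (155 to 335), 187 (132 to 256), 209 (144 to 427) and 200 (124 to 252.4) CPM. It was lower on day 3 (log2 fold change -0.13), day 14 (-0.32 ± 0.040, FDR 1.1e-12), day 21 (-0.14) and day 56 (-0.26, FDR 2.2e-09). HSPA5 moved in steps rather than in 1 direction. It fell by 0.27 between days 7 and 14 (FDR 1.7e-09), rose by 0.18 between days 14 and 21 (FDR 0.00033) and fell by 0.13 between days 21 and 56 (FDR 0.031). The rise was 0.02 on lane 1 and 0.30 and 0.21 on lanes 2 and 3.

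HSF1, the master regulator of the heat shock response, was higher than on day 0 on all 5 later days, whereas HSPE1, the other member that was called higher, was so on days 14 and 21. Its medians were 58.7 CPM (range 46.2 to 84.1) on day 0 and 64.1 (53.4 to 104), 64.8 (47.4 to 92.4), 70.97 (58.6 to 99.1), 76.1 (53.6 to 93.4) and 70.8 (53.5 to 91.6) CPM on the later days. The log2 fold change was 0.15, 0.13, 0.28, 0.33 and 0.30 ± 0.031 on the 5 days (largest FDR 0.00025), with 34, 32, 40, 41 and 37 of 42 steers higher. On day 21 the mean change was 0.21, 0.41 and 0.36 within lanes 1, 2 and 3. HSF1 activity is set largely at the protein level, so its transcript is no measure of that activity, and the inducible members HSPH1, HSP90AA1 and DNAJB1 were lower on days 3, 7 and 14 while it was higher.

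Between neighbouring days, members were called 2 higher and 0 lower from day 3 to day 7 (23.1% of all genes, 10.7% higher and 12.4% lower) and 2 higher and 4 lower from day 7 to day 14 (49.4%, 26.2% higher and 23.3% lower). The step to day 21 had 4 higher and 0 lower (14.7%, 7.93% higher and 6.79% lower), and the step from there to day 56 had 0 higher and 3 lower (8.14%, 4.55% higher and 3.59% lower). The share of 4 of 10 from day 14 to day 21 and of 3 of 10 to day 56 was above the share of all genes, while the 6 of 10 from day 7 to day 14 was nearer to it. The 4 members that rose from day 14 to day 21 were HSPH1, HSPA1A, DNAJB1 and HSPA5, and the 3 that fell afterwards were HSPD1, HSPE1 and HSPA5. Without steer Enro10, 4 more steps passed, namely HSPH1 (0.13, FDR 0.043) and HSPA5 (0.10, FDR 0.045) from day 3 to day 7, HSP90AB1 from day 7 to day 14 (-0.08, FDR 0.013) and HSPH1 from day 21 to day 56 (-0.15, FDR 0.032).

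The 6 untreated NC steers, taken alone, showed the same leading members. No member passed on day 3 (0.373% of genes called) or day 7 (3.63%) in edgeR or limma voom, and 2 and 0 members had an unadjusted p under 0.05 in edgeR on those days. On days 14, 21 and 56, when 30.2%, 24.9% and 30.8% of genes were called, 1 member was higher and 3 were lower each time in edgeR. In limma voom HSPH1 missed the threshold on day 21 (FDR 0.0502) and HSP90AA1 on day 56 (FDR 0.053), which left 2 lower. HSPH1 gave -0.53, -0.38 and -0.50 on those days (largest FDR 0.039). HSP90AA1 gave -0.40, -0.38 and -0.23, and HSPD1 gave -0.31, -0.25 and -0.31. HSF1 gave 0.22, 0.29 and 0.26 (largest FDR 0.031). The median over the 10 members was 0.01 on day 14, 0.04 on day 21 and 0.04 on day 56 in NC, beside 0.02, 0.01 and 0.03 for all genes.

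HSPA1A varied between libraries of 1 steer more than any other member. Of its sum of squares over all libraries, 4.46% lay between days, 7.56% between groups, 27.9% between steers of a group and 50.6% in the rest. HSPA8 had a larger share in the rest (61.1%), but of a smaller total. The SD of log2 CPM over all libraries was 0.71 for HSPA1A, 0.38 for HSPH1, 0.34 for HSPA8 and 0.19 for HSP90AB1. In 16 libraries of 12 steers HSPA1A was between 12.2 and 22.5 CPM, and the next library stood at 29.1 CPM. The limit of 25 CPM was chosen after the values were seen. Steer Ceft3 was low on days 3, 14 and 21, Ceft4 on days 0 and 56 and Flor4 on days 21 and 56, while the other 9 steers were low once. No NC library was among them, against 1 of 36 in ENRO, 2 in FLOR, 2 in TULA, 4 in TILD, 5 in CEFT and 2 in OXYT. By lane they were 3, 5 and 8 of 84. The lowest NC value was 51.2 CPM.

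The 16 libraries held 363 to 1135 HSPA1A counts each. Among the other members, HSPH1, HSP90AA1 and HSPD1 had their lowest value of all libraries in Ceft3 on day 21. HSPE1 had its highest in Ceft3 on day 14. Both libraries are among the 16, so these extremes come from a single steer. HSPA8 had a median of 987 CPM in the 16 libraries and 957 CPM in the other 236, HSPH1 had 27.9 and 31.1 CPM, and DNAJB1 had 64.2 and 62.3 CPM. HSPA1L, the neighbouring HSP70 gene, had 1.18 and 1.20 CPM. Steer Tild2 had 17.1 CPM on day 14 and 360 CPM, the highest of all libraries, on day 21.

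**Figure D4:**
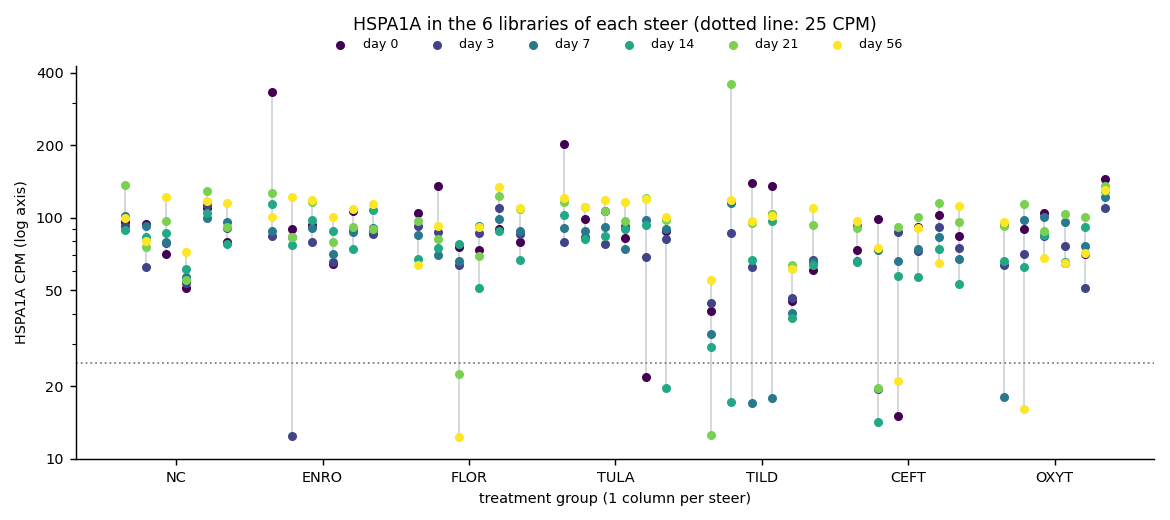
HSPA1A CPM on a log axis, with 1 column per steer, 1 point per day coloured by day and the steers grouped by treatment; the dotted line marks 25 CPM. The 16 points under the line fall in 12 steers of 6 groups and none in NC, and the highest points are Enro10 on day 0 (334 CPM) and Tild2 on day 21 (360 CPM).

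Libraries with high inducible chaperones fell into different patterns. In steer Enro10 on day 0, HSPH1 was at 149 CPM, 3.82-fold the median of the other 41 steers, HSPA1A at 334 CPM (3.74-fold), HSPA8 at 2772 CPM (2.62-fold) and DNAJB1 at 127 CPM (2.02-fold). HSPE1, HSP90AA1 and HSP90AB1 were also highest there, while HSF1 was at 1.16-fold. The same library was highest of 42 in 9 of the 12 HSP90 partner genes and 7 of the 14 TRiC and prefoldin genes, and in 1 of 12 immediate early genes. Its summed marker levels lay inside the range of the other steers for every cell type list, but these ranges were wide. The erythroid sum was 21576 CPM beside a median of 2219 CPM in the others, and the monocyte sum 4638 beside 2883 CPM. Eosinophil and basophil markers were lower, at 483 beside 682 CPM. The part of the cell mix was not tested. Steer Tula3 on day 0 was second in HSPA1A (202 CPM), HSPH1 (100 CPM), HSPA8 (1802 CPM) and DNAJB1 (99.4 CPM).

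Steer Tild2 on day 21 differed from that pattern. Its HSPA1A was 3.73-fold and its DNAJB1 2.27-fold the median of the others, and HSPA8 and HSP90AB1 were highest of 42 as well, but HSPH1 was eighth at 1.23-fold. Of the 12 immediate early genes 4 were highest there, and 3 of the 10 T cell markers, against 4.55% of all genes. Its summed T cell markers (4285 CPM) lay above the range of the other steers (2095 to 3972 CPM), and their part was not tested. Steer Flor6 on day 21 and steer NC13 on day 0 were highest of 42 in HSPA5, the ER member, and in HSPD1. Flor6 had HSPA5 at 427 CPM (2.05-fold) and HSPD1 at 149 CPM (1.90-fold), with 14 of 18 further ER chaperone genes highest of 42, against 5.59% of all genes, and HSPE1 was highest there too (78.6 CPM). Its summed NK and cytotoxic cell markers (212 CPM) lay below the range of the other steers (295 to 1210 CPM), as did its immediate early genes (619 CPM against 768 to 1469 CPM), and their part was not tested. NC13 had HSPA5 at 389 CPM and HSPD1 at 141 CPM, with 11 of 18 highest, against 3.16% of all genes, and was second in HSP90AA1 (850 CPM) and HSPE1 (75.7 CPM). HSPA1A was at 69.4 and 70.5 CPM in these 2 libraries, below the median of its day. The 5 libraries were picked for their values, so the folds are a description.

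The second question was whether a treatment differed from NC on the same day. All 6 treatments were set against the same 6 NC steers, so the comparisons share their controls. Of 360 member results, 1 passed an FDR of 0.1, while 0.508% of all gene results passed it. An unadjusted p under 0.05 (edgeR) was reached by 31. The share of all genes at an unadjusted p is not given here, so counts at that limit, here and elsewhere, have no background. The result past the FDR was HSF1 in CEFT on day 3, when 8% of genes were called. HSF1 stood at 59.04, 73.4, 73.6, 75.03, 82.7 and 104.2 CPM in the CEFT steers and at 53.4, 55.7, 56.4, 58.3, 60.6 and 60.7 CPM in the NC steers. In CEFT, 5 of the 6 steers were above every NC steer and 1 was inside the NC range. The log2 fold change was 0.43 ± 0.114 (edgeR, FDR 0.073). On day 0 HSF1 overlapped between the groups, at 56.7 to 67.2 CPM in CEFT and 51.1 to 66.6 CPM in NC. The call of day 3 depended on the setting. In edgeR it stayed with RLE scaling (FDR 0.069), with no filter (FDR 0.097) and without hemoglobin genes (FDR 0.075). HSF1 also passed in DESeq2 (FDR 0.0091). The call was lost after adjustment for lane by ComBat_seq (0.36, FDR 0.38) and in a fit with lane as a term (0.42, FDR 0.58). It was also lost without any 1 of steers Ceft3, Ceft5, Ceft6, NC1, NC7, NC12, NC13 and NC15 (FDR from 0.108 to 0.152). On day 3, 1 of 12 immediate early genes and none of the cell type markers were called higher in CEFT. The 8 B cell markers summed to 973 to 2777 CPM (median 2222) in CEFT and 1174 to 2025 CPM (median 1423) in NC, and their part was not tested.

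**Figure D5:**
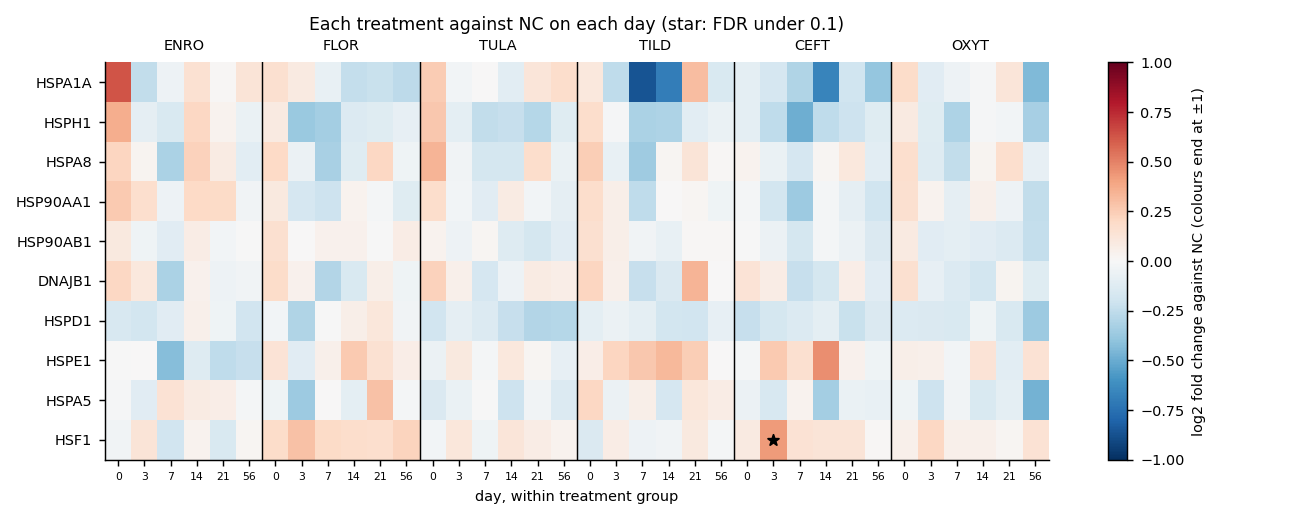
Log2 fold change against NC for the 10 genes (rows) in 6 treatments on 6 days (columns), in colours that end at -1 and 1, with a star where the FDR was under 0.1. The only star is HSF1 in CEFT on day 3, and the lowest value is HSPA1A in TILD on day 7 (-0.86), which did not pass.

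In 5 of the 360 comparisons the 6 treated and 6 NC steers did not overlap in CPM, against 0.810% of all gene results, and none of the 5 passed the FDR. HSPE1 in ENRO on day 7 was at 34.97 to 44.7 CPM, below NC at 47.7 to 64.4 CPM, with a log2 fold change of -0.43 (edgeR, FDR 0.26) in a comparison where 1.45% of genes did not overlap. HSPE1 in CEFT on day 14 was at 65.02 to 88.8 CPM, above NC at 38.9 to 56.4 CPM, with 0.46 (FDR 0.16) where 1.10% did not overlap. The same gene thus stood below NC in one treatment and above it in another. The other 3 lay in OXYT on day 56, where 0.908% of genes did not overlap and 0.0105% were called. HSPA5 was at 124 to 169 CPM against 189 to 235 CPM in NC (-0.47, FDR 0.21). HSPD1 was at 56.7 to 65.1 against 72.5 to 86.7 CPM (-0.36, FDR 0.21), and HSPH1 was at 19.6 to 25.8 against 26.7 to 31.5 CPM (-0.33, FDR 0.21). DESeq2 passed these 5 and 12 member results in all. In FLOR on day 3 it passed HSPH1 (-0.36), HSPD1 (-0.29), HSPA5 (-0.35) and HSF1 (0.30). The others were HSF1 in CEFT on day 3, HSPA5 in CEFT on day 14 and HSPD1 in TULA on day 56. The share of all genes that DESeq2 passed is not given here, so these counts have no background to be read against.

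The third question was whether the change from day 0 within steers differed between a treatment and NC, which removes differences already present on day 0. Of 300 member results 1 passed an FDR of 0.05, with 0.286% of all gene results called at that FDR, and 40 had an unadjusted p under 0.05 (edgeR). DNAJB1 in ENRO on day 7 gave a difference of changes of -0.48 ± 0.147 (FDR 0.033), and 6.24% of genes were called in that comparison. DNAJB1 was at 53.8, 56.8, 58.5, 60.5, 62.7 and 127.5 CPM in the ENRO steers on day 0 and at 49.2 to 61.1 CPM on day 7. NC steers were at 50.6 to 66.3 CPM on day 0 and 57.5 to 85.6 CPM on day 7. The highest ENRO value on day 0 was that of Enro10, and without that steer the difference was -0.27 (FDR 0.32) and no longer passed. That alternative was chosen after the data were seen.

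Averaged over the 6 days, the group effect against NC ranged from -0.45 to 0.21 over 60 member results (limma voom, with a correlation between libraries of a steer). None passed an FDR of 0.05, while 2.06% of all gene results passed it, and 6 member results had an unadjusted p under 0.05. The smallest FDR was that of HSF1 in FLOR (0.21 ± 0.067, FDR 0.096). A linear trend of the change from day 0 over the processing order gave values from -0.06 to 0.06 per place in the order. None of its 50 member results passed in edgeR or in limma voom, beside 0.386% of all gene results called in edgeR. An unadjusted p under 0.05 in edgeR was reached by 9. HSPE1 on day 14 had the smallest FDR (0.06 per place, FDR 0.14), and without steer Enro10 it gave 0.05 (FDR 0.30). Without that steer HSP90AB1 on day 56 passed, at -0.06 per place (FDR 0.034), where it had -0.04 (FDR 0.22) with all steers.

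Correlations of the members between libraries of a group and day were also described. After the mean of each group and day was subtracted from log2 CPM, 39 of the 45 pairs of members had a Pearson correlation above 0 over all libraries, with a median of 0.29. These values are descriptions, because libraries of a steer and genes of a library share depth and cell mix. The same share and median for pairs of all genes are not given here, so they have no background. Some pairs changed sign between days, such as HSPH1 with DNAJB1 (from -0.25 to 0.79) and HSP90AA1 with HSP90AB1 (from -0.22 to 0.55). HSPD1 and HSPA5 correlated at 0.65, HSPH1 and HSP90AB1 at 0.63, HSPH1 and HSPD1 at 0.62, and HSPH1 and HSPA8 at 0.57. HSP90AA1 and HSF1 had the lowest value, -0.23.

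The genes closest to each member by this measure differed between members. HSPA5 was nearest to HSP90B1 (0.90), STT3A (0.83) and HYOU1 (0.82), all of the ER. HSP90AB1 was nearest to CCT3 (0.75), CCT4 (0.74) and CCT2 (0.70), subunits of the cytosolic chaperonin TRiC. HSPH1 was nearest to HSPA4 (0.69), CCT4 (0.66) and DNAJA1 (0.64), and HSPA8 to HSPH1 (0.57), STIP1 (0.48) and HSP90AB1 (0.46). DNAJB1 was nearest to STIP1 (0.68), the adaptor between HSP70 and HSP90, AHSA1 (0.62), which stimulates HSP90, and TESK1 (0.61). HSPD1 was nearest to SRP54 (0.77), HSPA4 (0.74) and CCT2 (0.74), while HSPE1 was nearest to SPCS1 (0.76), DAD1 (0.75) and NHP2 (0.75). The chaperonin partners HSPD1 and HSPE1 shared none of these 3 neighbours and correlated with each other at 0.42. HSF1 was nearest to ADRM1 (0.85), SGTA (0.84) and PUF60 (0.84), and HSP90AA1 to TARS (0.67), UGP2 (0.67) and CSNK1A1 (0.65). HSPA1A had no close gene, with CIPC (0.40), UNC119B (0.37) and KDM5B (0.37) at the top. Against marker lists, DNAJB1 reached 0.41 with immediate early genes and HSP90AA1 0.35 with neutrophil markers, and their part was not tested.

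The share of variance between days was 38.6% for HSP90AA1, 37.1% for HSPH1, 29.4% for HSF1 and 25.3% for HSPD1, beside a median of 8.36% over all genes tested. It was lowest for the inducible HSPA1A (4.46%) and the constitutive HSPA8 (4.53%) and HSP90AB1 (4.57%). Differences between groups took 19.4% for HSPE1 and 15.2% for HSF1, the highest of the members, beside a median of 7.27% over all genes. HSP90AB1 had the largest share between steers of a group (41.4%).

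Further chaperone genes were followed in lists by role, on day 14 against day 0 when 65% of all genes were called. Of the 15 HSP70 genes and partners tested, 3 were higher, 9 lower and 3 not called, with a median log2 fold change of -0.13. HSPA6, an inducible HSP70 gene, fell by 1.05 from a median of 0.930 CPM, and BAG3, an inducible exchange factor that links HSP70 to autophagy, fell by 0.59 and was lower in 40 of 42 steers. HSPA4, a relative of HSPH1, fell by 0.32 and was lower in 41 of 42. Of the 14 cytosolic J-domain genes 3 were higher, 6 lower and 5 not called. DNAJA1, a partner of HSPA8, fell by 0.63, with DNAJC13 at -0.54 and DNAJB14 at -0.53.

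Of the 12 HSP90 partners 3 were higher, 4 lower and 5 not called. FKBP5, an immunophilin of the glucocorticoid receptor complex that glucocorticoids induce, fell by 0.71 and CHORDC1 by 0.52, while CDC37, the adaptor for kinases, rose by 0.15 in 35 of 42 steers. Among the 8 small heat shock protein genes tested 3 were higher, 1 lower and 4 not called, with HSPB8 at 0.37, HSPB6 at 0.36 and HSPB2 at -0.29, all with medians under 3 CPM. The 8 heat shock factors and regulators split into 2 higher, 3 lower and 3 not called. EP300, an acetyltransferase that modifies HSF1, fell by 0.83 and HSF2 by 0.28, whereas HSF2BP rose by 0.28.

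The TRiC and prefoldin list of 14 had 6 higher, 5 lower and 3 not called. Prefoldin subunits, which hand nascent actin and tubulin to TRiC, were split among themselves, with PFDN5 at 0.38, PFDN4 at -0.35 and PFDN1 at -0.28. The 10 further mitochondrial genes had 5 higher and 5 lower. CLPB, a disaggregase, fell by 0.48 and CLPX by 0.36, while CLPP, the protease subunit that CLPX feeds, rose by 0.36 in 40 of 42 steers. The 18 further ER genes had 4 higher, 10 lower and 4 not called on day 14, and 3 higher, 12 lower and 3 not called on day 56, with medians of -0.10 and -0.15. DNAJB9 fell by 0.60, HSP90B1, the HSP90 of the ER, by 0.40 and CANX, which folds glycoproteins, by 0.39. On day 14, when HSPA5 was lower, 31.2% of all genes were lower.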

How the data were processed

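The measurements were stranded mRNA libraries of whole blood, 6 from each of 42 steers, in a single table of gene counts. The counts as deposited by the authors were whole numbers that prepDE.py3 derived from transcript coverage, not normalized for library size or length. According to the labels and the study's methods, reads were checked with FastQC 0.11.9, trimmed with Trimmomatic 0.39, aligned with HISAT2 to ARS-UCD1.3 and assembled with StringTie 2.2.0. Coverage-derived counts can split reads between near-identical genes. Lane adjustment was not part of the deposited counts. No sequence of these genes was used here.

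Treatment, day and steer came from the labels, and 0 columns belonged to other samples. Software was sva 3.50.0, DESeq2 1.42.0, limma 3.58.1 and edgeR 4.0.16 under R 4.3.3. The tests covered genes that exceeded a CPM of 0.2 in 12 or more libraries, with TMM scaling. Days, steps, changes against NC and the order trend came from an edgeR quasi-likelihood fit (glmQLFit, non-legacy) of all libraries with steer as a fixed block. Each treatment was compared with NC on a day in 12 libraries without covariates, at a Benjamini-Hochberg FDR of 0.1 as in the study. All other tests used 0.05. ComBat_seq adjustment for lane, followed by the study's likelihood ratio test, was run as an alternative, because lane and group are partly confounded. The group effect came from limma voom with a consensus correlation of 0.35 between libraries of a steer, estimated on every 5th gene, in place of the mixed model of the study. SE was taken as the log2 fold change over the square root of F. Log2 CPM used a prior count of 2. The edgeR fit of all libraries and the edgeR comparison on a day were first run on simulated data, for some of their contrasts only. The limma voom, DESeq2, ComBat_seq and lane-term fits were not.

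Libraries of a steer are paired by the animal. After subtraction of the group and day means they correlated with a median of 0.34, against -0.07 for other steers of the group, and the mean was above 0.1 for 42 of 42 steers. Steers of different groups share no pairing. No 2 libraries were identical.

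The members were always named. For each member the 3 tested genes with the highest correlation of log2 CPM, after subtraction of group and day means, were named, and of each further chaperone list the 3 largest changes past the FDR on day 14. The members, lists and tests were chosen with earlier results of these data known. Libraries and steers singled out by value were chosen after their values were seen. Alternatives covered scaling, the count filter, hemoglobin genes, other tools, lane, the replicate block and single steers.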

Additional observations from a re-analysis of the deposited data

Results flagged for a closer look

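Within the 420 sets of 6 steers formed by member, group and day, 46 (10.95%) held a highest or lowest steer past Dixon's 95% critical value, where chance flags about 1 in 20. HSPA1A gave 13 of its 42 sets, in 12 of them through the lowest steer, and HSP90AA1 gave 0. Only values that were past that limit and also more than 2-fold from the nearest steer of the same group and day are listed here. A value far from its group that did not pass Dixon's limit is not in the list. The part of the listed values in the results was not tested beyond the fits without steer Enro10.

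HSPA1A was far below the other steers in Enro2 on day 3 (12.4 CPM), in Flor4 on day 21 (22.5 CPM) and day 56 (12.2 CPM), and in Tula8 on day 14 (19.7 CPM). The same held in Ceft4 on day 0 (15.1 CPM) and day 56 (21.1 CPM), and in Ceft3 on day 3 (19.5 CPM), day 14 (14.2 CPM) and day 21 (19.6 CPM). In OXYT it held in Oxyt1 on day 7 (18.01 CPM) and Oxyt2 on day 56 (16.1 CPM). HSPA8 was far below the rest of its group in Ceft10 on day 0 (408 CPM).

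On the high side, steer Enro10 on day 0 stood above the other ENRO steers in HSPA1A (334 CPM), HSPH1 (149 CPM) and DNAJB1 (127 CPM). The change of DNAJB1 from day 0 to day 7 differed between ENRO and NC (difference of log2 changes -0.48, edgeR FDR 0.033), and that contrast includes the library of Enro10.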

How the results depend on the processing

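Steer as a replicate block paired the days, and without the replicate block 9 in place of 15 steps between days passed, 0 in place of 1 change against NC, and 14 in place of 0 group effects. Calls against day 0 stayed at 33 to 37 (35 as reported) under RLE scaling, no filter, no hemoglobin genes, no block, limma voom and without steer Enro10. The change of DNAJB1 in ENRO also failed with no filter (0 calls) and without Enro10 (0 calls), the latter added after the data were seen. Without Enro10, 1 order trend passed (HSP90AB1, day 56), in place of 0. For treatment against NC on a day, DESeq2 gave 12 calls in place of 1, without a share of all genes to set beside them. Lane as a term gave 0, and ComBat_seq by lane gave 0 in both the quasi-likelihood and the likelihood ratio test. Leaving out 1 CEFT or NC steer gave 0 to 1. Among the 50 changes between days called in all cattle, none turned sign within lane 2 or 3 alone and 3 did within lane 1, namely HSPE1 from day 0 to 14 (-0.017), HSPA1A from day 14 to 21 (-0.015) and DNAJB1 from day 14 to 21 (-0.018). The lane 1 mean of HSPE1 includes steer Enro10, which had the lowest change of 42 steers (-0.76). The cause was not tested.

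With 6 steers a group, the treatment tests resolve only differences that are large beside the spread of steers, most of all for HSPA1A. HSPA1A and its copy were not separated. Order, pen and treatment cannot be told apart, and lane only in part.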
